A study of Mus musculus with 6 samples.

Results

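The tumor necrosis factor (TNF) superfamily was described in tumor-associated macrophages (TAMs) through 10 genes, found in the deposited table of 56980 genes by their Ensembl identifiers. They comprised 4 ligands (Tnf, Tnfsf9, Tnfsf12 and Tnfsf13b) and 6 receptors (Tnfrsf1a, Tnfrsf1b, Tnfrsf9, Tnfrsf11a, which encodes RANK, Tnfrsf12a and Tnfrsf21). Cells of ID8, an ovarian cancer line of the mouse, were injected intraperitoneally into female wild-type (WT) C57BL/6 mice or into female mice lacking the complement receptor C5aR (C5aR-/-) on the C57BL/6 background. The mice were 6 to 8 weeks old, and tumors were taken 2 months later. Live CD45+CD11b+Ly6G-F4/80+ cells were sorted, and their poly(A) RNA was sequenced in 6 libraries, 3 per genotype. Both groups carried the same tumor line, and no further agent is named in the labels of these libraries. C5aR was absent from all cells of the knockout host, not from macrophages alone, whereas the injected tumor cells were the same in both groups. The labels do not say that each library came from a separate mouse, so p-values measure only the spread between these libraries, which may be technical.

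Ligands of the TNF superfamily are mostly trimeric membrane proteins, many of which can be shed as soluble cytokines. They cluster their receptors, which recruit TRAF adaptors or death domain proteins and so lead to NF-κB and MAP kinase signaling or to cell death. In macrophages, TNF is an early inflammatory product, and RANK is the receptor through which RANKL drives macrophage precursors to become osteoclasts.

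Values were transcript abundances (TPM), which are normalized for transcript length and library total, so levels could be compared between genes. They keep no depth, and no counting error could be given. Differences are C5aR-/- minus WT on the log2(TPM + 1) scale, so the change of weakly expressed genes is understated. They were tested with limma over the 14776 genes that reached a TPM of 1 in 3 or more libraries. The targeted gene C5ar1 measured 86.5, 37.3 and 16.2 TPM in WT and 0.380, 0.110 and 0.05 TPM in C5aR-/- TAMs. For an adjusted p under 0.05 and a 2-fold difference, 0 genes were called (0% of those tested), and the smallest adjusted p was 0.0666, while 2133 genes had an unadjusted p under 0.05 at any fold. For an unadjusted p under 0.05 and a 2-fold difference, 2.13% of genes were higher and 2.84% lower in C5aR-/- TAMs. Summed TPM of 8 macrophage markers was 654 to 2166 in WT and 785 to 2673 in C5aR-/- TAMs, and all 8 passed the filter. The sum of 5 epithelial markers was high as well, 1837 to 2034 in WT and 1664 to 2206 in C5aR-/- TAMs, although the gate required CD45.

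All 10 genes were measured and passed the filter on low values, and none of them passed the adjusted threshold. At the unadjusted threshold 1 of 10 was called, Tnfrsf11a, which was higher in C5aR-/- TAMs. Over all genes tested, 2.13% were called higher and 2.84% lower. Values of the groups did not overlap for 2 of the 10, Tnfrsf11a and Tnfrsf12a, both higher in C5aR-/- TAMs, against 8.84% of all genes tested that were higher and 12.5% that were lower without overlap. The 10 log2 differences had a median of 0.09, with 5 above and 5 below 0, beside a median of -0.05 and 44.5% above 0 over all genes tested. For the ligands the median was -0.13 and for the receptors 0.33. For Tnf itself the SD within each group was larger than the difference between the group means.

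By mean TPM over the 6 libraries, the receptors Tnfrsf12a (268) and Tnfrsf1a (183) led, followed by Tnfrsf1b (53.7), Tnf (44.1), Tnfrsf21 (26.7), Tnfsf9 (19.6), Tnfsf12 (16.0), Tnfrsf11a (3.84), Tnfrsf9 (1.76) and Tnfsf13b (1.71). Ranges of neighbors in this order were apart at only 2 places, between Tnfrsf1a and Tnfrsf1b and between Tnfsf12 and Tnfrsf11a. The remaining neighbors overlapped in range, although Tnfrsf12a exceeded Tnfrsf1a in 6 of 6 libraries. Among all genes tested, Tnfrsf12a stood at percentile 96.7 of mean TPM and Tnfrsf11a at percentile 20.1. These levels are of whole libraries, in which epithelial markers were high as well, and which cells supplied the transcripts was not tested. The 6 receptors together held a TPM of 457 to 537 in WT and of 510 to 652 in C5aR-/- TAMs, and the 4 ligands held 41.9 to 147 and 41.5 to 112.

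**Figure D1:**
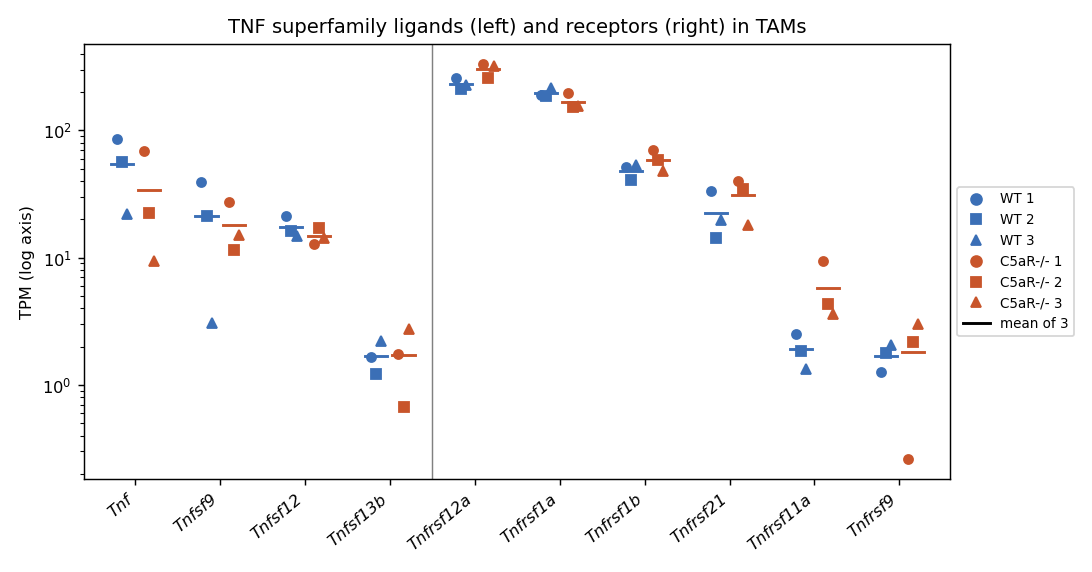
TPM, on a log axis, of the 10 TNF superfamily genes in the 3 WT and 3 C5aR-/- libraries, with 1 point per library and a bar at the mean of each group. Tnfrsf11a lies between 1.34 and 2.51 in WT and between 3.58 and 9.41 in C5aR-/- TAMs, while the Tnf points of both groups share most of their range.

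Tnf encodes the founding cytokine of the family and lies on the minus strand of chromosome 17 (chr17:35199381-35202007, GRCm38, ENSMUSG00000024401). The 250 bases upstream of its RefSeq start (GRCm38.p6, chr17:35202008-35202257, minus strand) overlapped no annotated exon and are shown because Tnf had the highest mean TPM of the 4 ligands, although Tnfsf9 and Tnfsf12 were above it in C5aR-/- TAM 3. Capitals mark TATAAA, searched on both strands, which ended 24 bases before the start and occurred in 12.4% of 32851 upstream windows of the same length.

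Tnf upstream: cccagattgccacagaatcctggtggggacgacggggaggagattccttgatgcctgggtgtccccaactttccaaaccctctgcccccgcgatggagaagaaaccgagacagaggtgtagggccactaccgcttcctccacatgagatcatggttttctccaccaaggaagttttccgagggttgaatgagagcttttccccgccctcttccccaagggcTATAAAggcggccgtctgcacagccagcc

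Tnf measured 85.0, 56.0 and 21.9 TPM in WT TAMs 1 to 3 and 69.5, 22.5 and 9.33 TPM in C5aR-/- TAMs 1 to 3. The lowest value was in a C5aR-/- library and the highest in a WT library, but the groups overlapped widely. Means were 54.3 ± 31.6 and 33.8 ± 31.7 (SD, n = 3 each), and the log2 difference was -0.91 (standard error 0.77, 95% interval -2.73 to 0.92, limma adjusted p = 0.632). The level ranged 3.87-fold within WT and 7.45-fold within C5aR-/- TAMs. Without C5aR-/- TAM 1 the log2 difference was -1.63 and passed the unadjusted threshold (limma adjusted p = 0.197), and without C5aR-/- TAM 3 it was -0.25.

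Within both groups Tnf followed the same order of libraries as Adgre1, the gene of the sorting marker F4/80, which measured 114, 45.8 and 25.4 TPM in WT and 91.1, 40.1 and 27.9 TPM in C5aR-/- TAMs. That order was shared by 2 of the 10 genes (Tnf and Tnfrsf11a) and by 6.96% of all genes tested. Summed TPM of 4 B cell markers was 134, 131 and 27.8 in WT and 186, 56.4 and 10.2 in C5aR-/- TAMs, thus also lowest in the libraries with least Tnf. The genes whose profile over the 6 libraries lay closest to that of Tnf were Rasgrp2, Cd37 and Blk, with root mean square differences of 0.05, 0.16 and 0.19 on the log2 scale against a median of 1.13 over all genes tested. Blk, a B cell kinase, measured 12.7, 11.4 and 3.47 TPM in WT and 9.66, 3.38 and 1.18 TPM in C5aR-/- TAMs. With the mean level of the 8 macrophage markers as a covariate, added after the data were seen, the log2 difference of Tnf was -1.42 and passed the unadjusted threshold (limma adjusted p = 0.124). The part of B cell markers was not tested, and in sorted bulk RNA fewer cells of a type and less RNA per cell cannot be told apart.

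The other ligands were lower than Tnf in mean TPM and overlapped between the groups. Tnfsf9, the 4-1BB ligand that costimulates T cells (chr17:57105325-57107757, plus strand), measured 39.4, 21.2 and 3.04 TPM in WT and 27.6, 11.5 and 15.0 TPM in C5aR-/- TAMs. WT TAM 3 was the lowest of the 6, at 13.0-fold below WT TAM 1. The log2 difference was 0.22 (standard error 0.83, 95% interval -1.75 to 2.20, limma adjusted p = 0.927), and it turned to -0.74 without WT TAM 3 and to -0.12 without C5aR-/- TAM 1.

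Tnfsf12 encodes TWEAK, the ligand of the receptor of Tnfrsf12a (chr11:69686250-69695849, minus strand). Its TPM was 21.1, 16.2 and 14.7 in WT and 12.8, 17.1 and 14.4 in C5aR-/- TAMs (fitted log2 difference -0.21, 95% interval -0.68 to 0.26, limma adjusted p = 0.667). The annotated read-through gene Tnfsfm13 overlaps it on the same strand, so how reads were split between them is uncertain. Tnfsf13b encodes BAFF, a survival factor of B cells (chr8:10006467-10039072, plus strand), and measured 1.67, 1.21 and 2.21 TPM in WT and 1.74, 0.670 and 2.77 TPM in C5aR-/- TAMs. C5aR-/- libraries held both the lowest and the highest of these values, with a log2 difference of -0.04 (95% interval -0.89 to 0.80, limma adjusted p = 0.967) whose sign changed under quantile normalization (0.046). Tnfsf13, which encodes the related ligand APRIL and is not among the 10, was far more abundant, with a TPM of 105, 119 and 115 in WT and of 82.7, 101 and 90.2 in C5aR-/- TAMs. It was lower without overlap in C5aR-/- TAMs and did not pass either threshold (fitted log2 difference -0.31, limma adjusted p = 0.348). Whether reads of Tnfsf13 were also shared with Tnfsfm13 was not examined.

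The receptors for TNF itself were both well expressed. Tnfrsf1a encodes TNFR1, the broadly expressed receptor with a death domain (chr6:125349362-125362484, plus strand), and measured 191, 187 and 217 TPM in WT and 198, 152 and 155 TPM in C5aR-/- TAMs. C5aR-/- TAMs 2 and 3 were below every WT library, whereas C5aR-/- TAM 1 lay among them (fitted log2 difference -0.24, standard error 0.15, limma adjusted p = 0.505). Tnfrsf1b encodes TNFR2, which has no death domain and is found mainly on immune and endothelial cells (chr4:145213463-145246870, minus strand). Its TPM was 51.4, 40.6 and 53.1 in WT and 70.2, 58.5 and 48.2 in C5aR-/- TAMs, with overlap through C5aR-/- TAM 3 alone (fitted log2 difference 0.27, standard error 0.19, limma adjusted p = 0.545).

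Within each library, TNFR2 transcripts per TNFR1 transcript numbered 0.269, 0.217 and 0.245 in WT and 0.355, 0.384 and 0.310 in C5aR-/- TAMs. The groups did not overlap, and the log2 ratio was -2.02 ± 0.15 in WT and -1.50 ± 0.15 in C5aR-/- TAMs (SD, n = 3 each). The difference of 0.52 had p = 0.1 in a two-sided exact permutation test, the smallest p that 3 libraries against 3 allow, and p = 0.333 after adjustment over the 5 ratios compared. Leaving out each library in turn gave 0.44 to 0.60. With the replicate number as a block the exact permutation p was 0.25, the smallest that this blocked test allows. Neither receptor passed a threshold on its own. Markers of epithelial and other cells were also present, and their part in this ratio was not tested. Tnf per Tnfrsf1b was 1.65, 1.38 and 0.414 in WT and 0.991, 0.384 and 0.194 in C5aR-/- TAMs, with overlap (log2 difference -1.18, exact permutation p = 0.2, adjusted 0.333). For Tnf per Tnfrsf1a the log2 difference was -0.66 (exact permutation p = 0.6, adjusted 0.75), again with overlap. Leaving out each library in turn gave -1.27 (without C5aR-/- TAM 1) to -0.056 (without C5aR-/- TAM 3) for Tnf per Tnfrsf1a, and -1.79 (without WT TAM 3) to -0.65 (without C5aR-/- TAM 3) for Tnf per Tnfrsf1b.

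**Figure D2:**
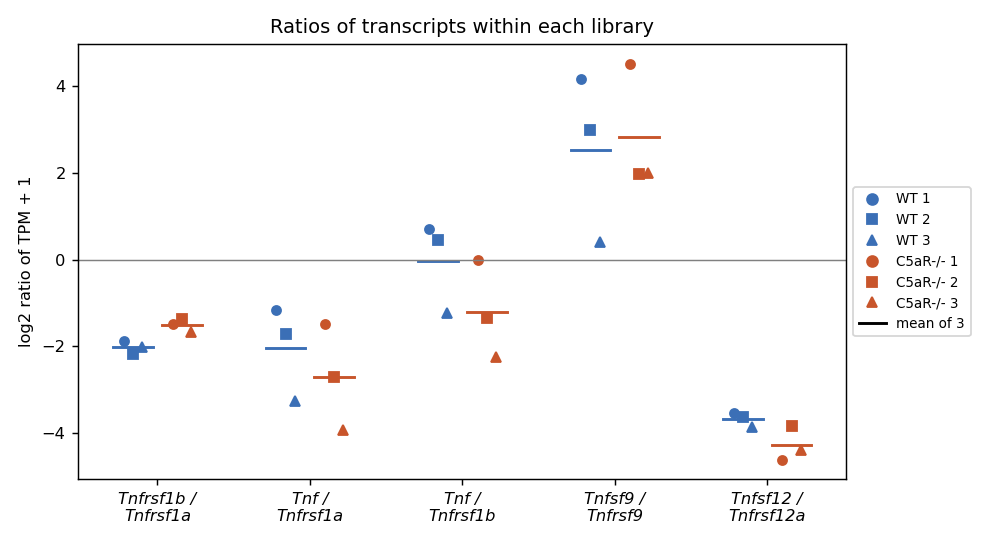
Log2 ratios of TPM + 1 for 5 pairs of TNF superfamily genes, with 1 point per library and a bar at the mean of 3 WT or 3 C5aR-/- libraries. The Tnfrsf1b to Tnfrsf1a ratio is apart between the groups, from -2.18 to -1.88 in WT and from -1.67 to -1.36 in C5aR-/- TAMs, and the other 4 ratios overlap.

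Tnfrsf11a encodes RANK (chr1:105780718-105847981, plus strand, GRCm38, ENSMUSG00000026321). Its upstream window (GRCm38.p6, chr1:105780473-105780722, plus strand), of which 5 bases lie in an annotated exon, is shown because it belongs to the only member past the unadjusted threshold. It held neither TATAAA nor a match to the consensus site of NF-κB (the κB consensus, 10 bases, searched on both strands), which says only that these letters are not in this window.

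Tnfrsf11a upstream: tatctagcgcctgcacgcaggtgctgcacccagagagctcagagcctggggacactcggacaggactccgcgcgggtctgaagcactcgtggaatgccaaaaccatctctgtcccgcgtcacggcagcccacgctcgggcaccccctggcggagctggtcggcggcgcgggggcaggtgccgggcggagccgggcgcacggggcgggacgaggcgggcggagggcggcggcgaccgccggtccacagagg

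RANK transcripts measured 2.51, 1.86 and 1.34 TPM in WT and 9.41, 4.36 and 3.58 TPM in C5aR-/- TAMs. Every C5aR-/- library lay above every WT library, and C5aR-/- TAM 1 was the highest of them. Means were 1.90 ± 0.586 and 5.78 ± 3.16 (SD, n = 3 each), and the log2 difference was 1.15 (standard error 0.36, 95% interval 0.29 to 2.01, unadjusted p = 0.0164 and adjusted p = 0.241 from limma). A two-sided exact permutation test gave p = 0.1, the smallest it can give. Without C5aR-/- TAM 1 the log2 difference was 0.79 and under 2-fold (limma adjusted p = 0.169). The threshold was also missed without WT TAM 3 and with a pseudocount of 5 (0.61), as low TPM makes the value depend on the pseudocount.

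Tnfrsf11a also followed the order of Adgre1 within each group. The Adgre1 values of the groups overlapped (fitted log2 difference -0.13). With the same macrophage covariate its log2 difference was 0.95 (limma adjusted p = 0.145) and it no longer passed the unadjusted threshold with the 2-fold criterion. Of the 8 macrophage markers, 2, Adgre1 among them, were lower and 6 were higher in C5aR-/- TAMs. Of those higher, 1, Fcgr1, was without overlap. Markers of other cells moved too, since the neutrophil genes S100a8 and S100a9 and the mast cell genes Cpa3, Mcpt4 and Fcer1a were lower in all C5aR-/- libraries, and the part of these markers and of the mesothelial ones in the result was not tested. Summed TPM of 4 neutrophil markers was 562 to 2082 in WT and 19.0 to 319 in C5aR-/- TAMs, and Ly6g was listed at 0 in some libraries. The 4 mast cell markers summed to 58.9 to 82.5 and 56.6 to 85.4, with Cpa3, Mcpt4 and Fcer1a listed at 0 in some C5aR-/- libraries and Kit higher. Of 4 mesothelial markers, which summed to 813 to 1049 in WT and 674 to 882 in C5aR-/- TAMs, Upk3b and Lrrn4 were lower without overlap, Msln was higher without overlap (145, 135 and 180 TPM in WT against 268, 284 and 288) and Wt1 overlapped.

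Lipa, which encodes lysosomal acid lipase, had the profile closest to that of Tnfrsf11a, at a root mean square difference of 0.10 against a median of 0.78 over all genes tested. Its TPM was 39.0, 29.1 and 24.7 in WT and 97.7, 54.6 and 42.1 in C5aR-/- TAMs. Gm15785 (0.12) and Hist1h3h (0.13) came next, both at low TPM.

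The partners of RANK had low values. Tnfsf11, the gene of RANKL, measured at most 0.540 TPM in WT libraries and 0.280 in C5aR-/- ones, and Tnfrsf11b, which encodes the decoy receptor osteoprotegerin, reached 0.570 and 0.09. Neither passed the filter. Of 12 genes known as osteoclast or RANK targets, 7 were tested, with a median log2 difference of 0.56. This median was 0.28 without C5aR-/- TAM 1, 0.35 without WT TAM 3, 0.29 with a pseudocount of 5, 0.25 with a TPM of at least 5 and 0.33 with the macrophage covariate. Of the 7 tested, 5 had a log2 difference above 0 and 2 below. At the unadjusted threshold 1 was higher (Acp5) and 0 were lower, against 2.13% and 2.84% of all genes tested. Values did not overlap for 2 (Acp5 and Itgb3), both higher, against 8.84% of all genes tested that were higher without overlap. Acp5, the tartrate-resistant acid phosphatase, measured 18.1, 20.2 and 22.9 TPM in WT and 125, 67.5 and 61.8 TPM in C5aR-/- TAMs, so that the groups stood well apart (fitted log2 difference 1.94, standard error 0.28, limma adjusted p = 0.0668). Without C5aR-/- TAM 1 its log2 difference was 1.62 with a limma adjusted p of 0.0167, and leaving out any other library gave adjusted p values of 0.127 to 0.346.

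Itgb3, an integrin chain of osteoclasts and other cells, averaged 10.5 ± 1.65 TPM in WT and 18.4 ± 5.71 in C5aR-/- TAMs (SD, n = 3 each, log2 difference 0.72, limma adjusted p = 0.286). Ctsk, the osteoclast collagenase cathepsin K, measured 0.440, 1.28 and 1.29 TPM in WT and 20.7, 3.18 and 0.940 TPM in C5aR-/- TAMs, a spread that rested on C5aR-/- TAM 1 (fitted log2 difference 1.52, limma adjusted p = 0.454). Calcr, the calcitonin receptor of mature osteoclasts, was listed at 0 in all 6 libraries. The other genes of this list that missed the filter were Dcstamp, Ocstamp, Atp6v0d2 and Oscar. Dcstamp, Ocstamp and Atp6v0d2 were higher without overlap in C5aR-/- TAMs, with highest values of 2.47, 1.41 and 6.59 TPM, and Oscar overlapped. Nfatc1, the master regulator of osteoclast formation, averaged 12.5 ± 1.33 and 12.9 ± 5.71 (fitted log2 difference -0.03, 95% interval -0.75 to 0.69). Mmp9, of the same list, averaged 13.2 TPM in WT and 11.8 in C5aR-/- TAMs, with overlap (fitted log2 difference -0.61, limma adjusted p = 0.8).

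**Figure D3:**
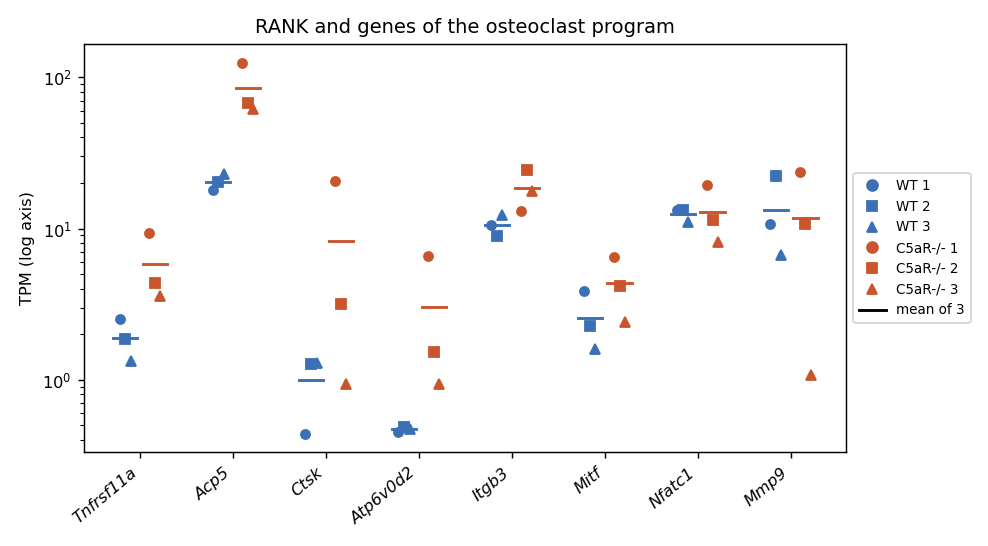
TPM, on a log axis, of Tnfrsf11a (RANK) and 7 osteoclast genes, with 1 point per library and a bar at the mean of each group. Tnfrsf11a, Acp5, Itgb3 and Atp6v0d2 are higher in all 3 C5aR-/- libraries than in the 3 WT libraries. Atp6v0d2 did not pass the filter, and the Ctsk and Atp6v0d2 means of C5aR-/- TAMs rest mainly on C5aR-/- TAM 1 (20.7 and 6.59 TPM).

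Tnfrsf12a encodes Fn14, the injury-induced TWEAK receptor (chr17:23675445-23677468, minus strand). It was the most abundant of the 10, with a TPM of 256, 211 and 226 in WT and of 334, 258 and 321 in C5aR-/- TAMs. Every C5aR-/- library was above the WT libraries, but C5aR-/- TAM 2 exceeded WT TAM 1 only narrowly, and the groups overlapped under quantile normalization and under median-of-ratios scaling. Means were 231 ± 23.1 and 304 ± 41.0 (SD, n = 3 each), with a log2 difference of 0.39 (standard error 0.15, 95% interval 0.03 to 0.76, limma adjusted p = 0.321), under the 2-fold criterion. Of the 5 epithelial markers, whose sums are given above, 2 had a log2 difference above 0 and 1, the keratin gene Krt8, was higher without overlap. Krt8 measured 465, 455 and 460 TPM in WT and 758, 624 and 743 TPM in C5aR-/- TAMs, and its part in the result was not tested. The closest profiles were those of Tdg (0.04), Wsb2 (0.06) and Gm45053 (0.06), against a median of 0.39. Transcripts of the ligand Tnfsf12 per Tnfrsf12a transcript ranged from 0.0651 to 0.0824 in WT and from 0.0381 to 0.0663 in C5aR-/- TAMs (log2 difference -0.60, exact permutation p = 0.2, adjusted 0.333).

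Tnfrsf21 encodes death receptor 6 (chr17:43016555-43089189, plus strand), with a TPM of 33.6, 14.2 and 19.8 in WT and of 39.8, 34.9 and 18.1 in C5aR-/- TAMs. The groups overlapped, since WT TAMs 1 and 3 lay above C5aR-/- TAM 3 (fitted log2 difference 0.45, standard error 0.39, 95% interval -0.49 to 1.39, limma adjusted p = 0.643). Apba1 (0.13), Des (0.19) and Bcl2a1b (0.20) had the closest profiles, against a median of 0.64.

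Tnfrsf9 encodes 4-1BB (CD137), a costimulatory receptor best known on activated T cells (chr4:150914562-150946102, plus strand). Of the 8 genes with an upstream window in RefSeq, only Tnfrsf9 matched the κB consensus on either strand, as did 7.3% of all windows. It held overlapping matches, one base apart, that together covered bases 43 to 33 before the second of its RefSeq starts, in sequence that the gene annotation counts as exonic (GRCm38.p6, chr4:150927947-150927975, plus strand), and are shown in capitals as 1 stretch with 9 bases on each side.

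Tnfrsf9 κB matches: agagcagctGGGGATTTCCCaggaggccc

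Tnfrsf9 measured 1.26, 1.79 and 2.05 TPM in WT and 0.260, 2.17 and 3.01 TPM in C5aR-/- TAMs. Both extremes were C5aR-/- libraries, which ranged 11.6-fold. The log2 difference was -0.09 (standard error 0.45, limma adjusted p = 0.949), and its sign was positive under quantile normalization (0.088) and without C5aR-/- TAM 1 (0.41). The 4-1BB ligand outnumbered the receptor in each library, by 1.48 to 31.3 in WT and by 4.98 to 106 in C5aR-/- TAMs, and this ratio did not separate the groups (log2 difference 0.31, exact permutation p = 0.9, also after adjustment).

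Further members of the superfamily were taken from a list of 14 ligands and 22 receptors. Of the 7 ligands tested, 0 passed the unadjusted threshold in either direction, against 2.13% higher and 2.84% lower of all genes tested. All 7 had a log2 difference below 0, against 55.5% of all genes tested. Cd40lg, Tnfsf8, Fasl and Tnfsf14 were near the filter, with means over all libraries of 0.942, 0.948, 1.15 and 1.89 TPM. The median log2 difference of the 7 was -0.70. It was -0.39 without WT TAM 3, -0.38 without C5aR-/- TAM 3 and -0.30 with a pseudocount of 5. Ltb, a lymphotoxin chain, was the only one besides Tnfsf13 with a mean TPM of at least 10, at 17.5 ± 6.69 in WT and 10.3 ± 7.87 in C5aR-/- TAMs (limma adjusted p = 0.511). Of the 18 receptors tested, 3 were higher and 2 lower at the unadjusted threshold, against 2.13% and 2.84% of all genes tested. Their median was 0.24. That median was 0.0096 without C5aR-/- TAM 1, 0.047 without WT TAM 3 and 0.079 without WT TAM 1.

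Tnfrsf23, a decoy receptor for the TNF-related ligand TRAIL, separated the groups most clearly of all the superfamily genes. It measured 3.93, 2.97 and 1.89 TPM in WT and 14.7, 15.8 and 16.1 TPM in C5aR-/- TAMs (fitted log2 difference 2.11, standard error 0.24, limma adjusted p = 0.0666). Its limma adjusted p was 0.0241 without C5aR-/- TAM 1, 0.111 to 0.329 without any other library and 0.109 with the replicate number as a block. Its neighboring paralog Tnfrsf22 measured 2.14, 1.07 and 1.47 TPM in WT and 3.83, 5.16 and 7.62 TPM in C5aR-/- TAMs (fitted log2 difference 1.33, limma adjusted p = 0.144). Reads of these similar genes may have been split between them, so their separate values are uncertain. Eda2r, a receptor for ectodysplasin, was the remaining higher gene, although its groups overlapped (fitted log2 difference 1.18, limma adjusted p = 0.318).

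Tnfrsf19 and Tnfrsf25 were the lower receptors. Tnfrsf19, a receptor of epithelial and neural progenitors, measured 5.52, 9.54 and 2.22 TPM in WT and 1.09, 0.720 and 0.50 TPM in C5aR-/- TAMs (fitted log2 difference -1.79, limma adjusted p = 0.170). Tnfrsf25, which encodes death receptor 3, measured 2.02, 4.85 and 7.88 TPM in WT and 1.65, 1.28 and 1.55 TPM in C5aR-/- TAMs (fitted log2 difference -1.12, limma adjusted p = 0.292). More abundant receptors passed neither threshold. Ltbr averaged 63.6 and 78.6 TPM in WT and C5aR-/- TAMs, Tnfrsf14 averaged 19.5 and 25.4, Cd40 averaged 11.5 and 9.96, and Fas averaged 9.75 and 10.9. Relt averaged 6.34 and 11.7, and Tnfrsf13b, a receptor for BAFF and APRIL, averaged 7.00 and 10.5.

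**Figure D4:**
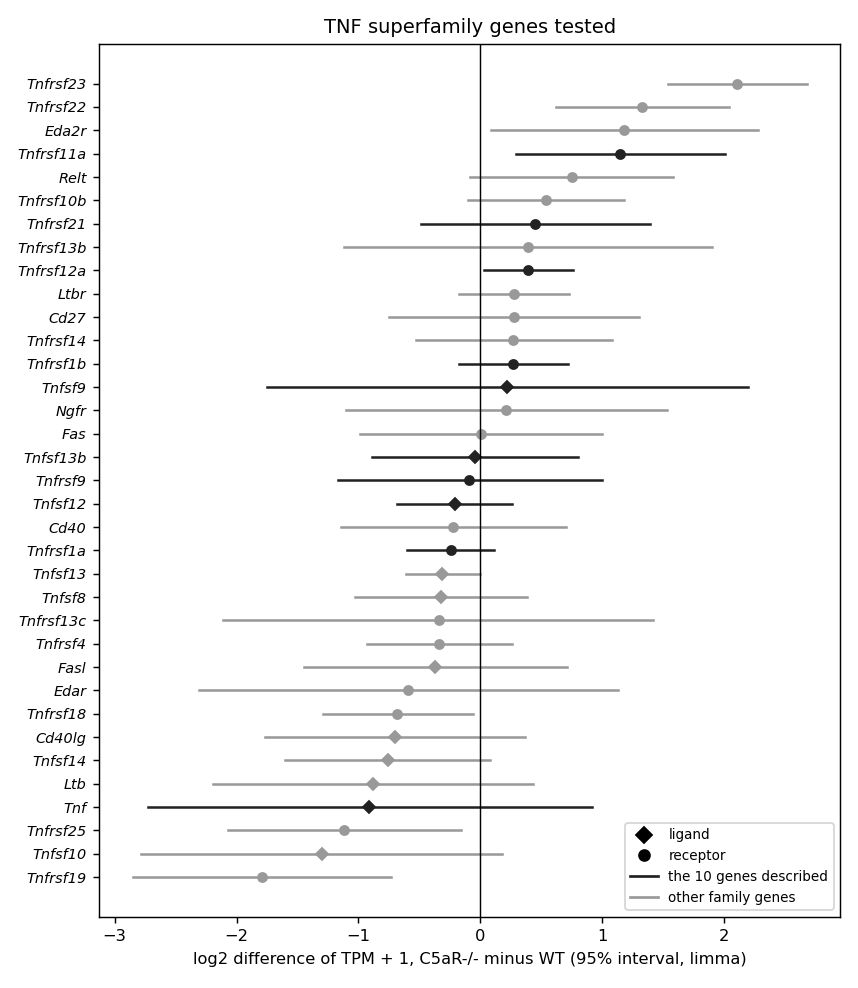
Log2 difference, C5aR-/- minus WT, with its 95% interval from limma for the tested TNF superfamily ligands and receptors, with the 10 described genes in black and the others in gray. Intervals of Tnf (-2.73 to 0.92) and Tnfsf9 (-1.75 to 2.20) are wide, and that of Tnfrsf23 lies between 1.54 and 2.68.

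Downstream of the receptors, 24 adaptor and kinase genes were tested, and 0 passed the unadjusted threshold in either direction. Over all genes tested, 2.13% passed it higher and 2.84% lower. Their median log2 difference was -0.12 (-0.11 to -0.044 when each library was left out). Without overlap, 5 were higher in C5aR-/- TAMs, all by small amounts, and 0 were lower, against 8.84% and 12.5% of all genes tested. The 3 largest were Map3k14, which encodes the NF-κB-inducing kinase (0.39, limma adjusted p = 0.344), Sharpin, a subunit of the linear ubiquitin ligase (0.34, limma adjusted p = 0.311), and Traf3, an adaptor that restrains that kinase (0.28, limma adjusted p = 0.442). Of 13 genes of NF-κB subunits and inhibitors, 0 passed the unadjusted threshold and all 13 overlapped, beside the same shares of all genes tested. Their median was -0.14 (-0.16 to -0.036 when each library was left out).

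Of 20 genes known to be induced by TNF, 1 was higher (Vcam1) and 0 were lower at the unadjusted threshold. Over all genes tested these shares were 2.13% and 2.84%. The median of the 20 was -0.19 and turned to 0.11 without C5aR-/- TAM 3 and to 0.049 without WT TAM 1. Vcam1, an adhesion molecule, measured 9.35, 9.66 and 15.8 TPM in WT and 44.4, 19.4 and 21.4 TPM in C5aR-/- TAMs, without overlap (fitted log2 difference 1.16, limma adjusted p = 0.232). Sod2, a mitochondrial superoxide dismutase, was lower without overlap, at a mean of 103 ± 19.3 in WT and 62.3 ± 9.56 in C5aR-/- TAMs (fitted log2 difference -0.71, limma adjusted p = 0.203). Of 9 genes of TNF shedding and mRNA decay, 0 passed the unadjusted threshold, against the same shares of all genes tested (2.13% higher and 2.84% lower). Their median was 0.11, or -0.043 without C5aR-/- TAM 1. Adam17, the sheddase of TNF, was the only one without overlap, at 27.7 ± 0.993 in WT and 30.8 ± 0.392 in C5aR-/- TAMs. Over all genes tested, 8.84% were higher and 12.5% lower without overlap.

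Some inducible genes shared the library order of Tnf, and most genes of their lists did not. The order of Adgre1 in both groups was shared by 4 of the 13 NF-κB genes (Rel, Nfkbia, Nfkbiz and Tnfaip3) and 4 of the 20 TNF-induced genes (Cxcl1, Cxcl2, Il6 and Plaur), against the 6.96% of all genes given above. It was also shared by 2 of 7 osteoclast genes, 4 of 24 adaptor and kinase genes and 0 of 9 genes of TNF shedding and mRNA decay. Among the further superfamily genes, 1 of 7 ligands and 1 of 18 receptors shared it. Nfkbia, the inhibitor IκBα, measured 990, 511 and 340 TPM in WT and 665, 443 and 255 TPM in C5aR-/- TAMs. The chemokine gene Cxcl2 measured 1512, 728 and 218 TPM in WT and 1356, 573 and 164 TPM in C5aR-/- TAMs. In both genes the spread within a group exceeded the difference between group means. These counts describe shared order among 3 libraries in each group, and no relation was tested.

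**Figure D5:**
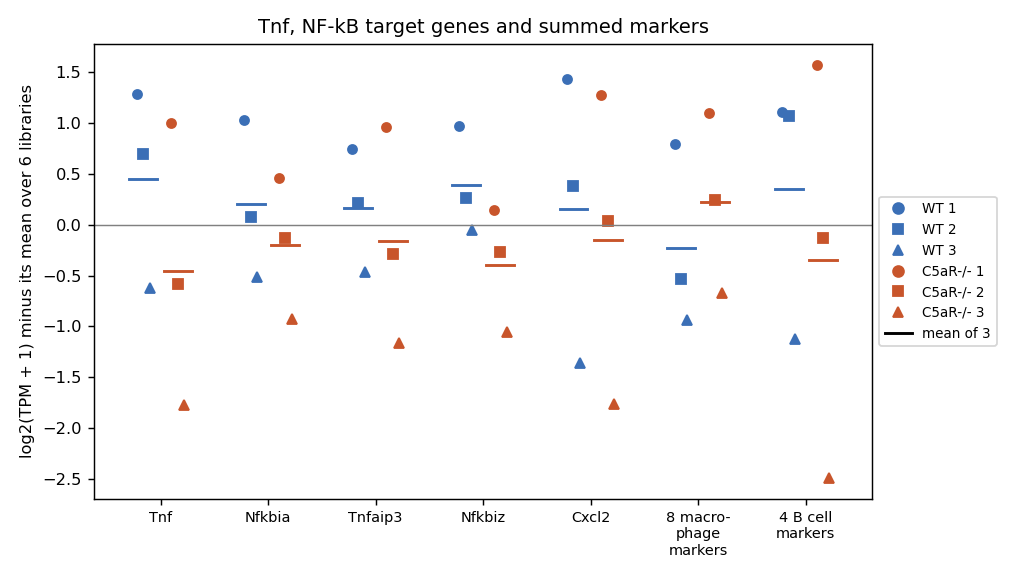
Log2(TPM + 1) minus its mean over the 6 libraries for Tnf, 4 NF-κB target genes and the summed macrophage and B cell markers, with 1 point per library and a bar at each group mean. Within both groups the first library is highest and the third lowest for Tnf, Nfkbia, Tnfaip3, Nfkbiz, Cxcl2 and both marker sums. The 4 target genes are among those that share this order and were chosen after values were seen, so their order is no result. Most other genes of the same lists did not share it.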

How the data were processed

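RNA of sorted TAMs was measured in 3 WT and 3 C5aR-/- libraries, grouped by the sample labels. The methods name fastp, HISAT2, StringTie and gffcompare and FPKM, while the submitters' processing notes name mm10, RSEM and DESeq2. Tool versions and the annotation release are not given in the sources used here. The authors deposited TPM values per gene, which sum to 1000000 in each library, and their mean TPM of each group, which was not used. Figure legends state 4 mice a group, against 3 libraries a group here. Because TPM is no count, limma 3.58.1 in R 4.3.3 (lmFit, eBayes with trend, Benjamini-Hochberg) was run on log2(TPM + 1). Of 56980 genes, 52073 had a symbol in the GENCODE M21 annotation of GRCm38, 28003 were at 0 in all libraries and were not tested, and 14776 passed the filter. Depth is unknown. The limma step was tested on simulated data. Ratios were compared by exact permutation tests. Upstream windows came from RefSeq (GRCm38.p6), and 8 of the 10 genes matched.

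The members, gene lists, named genes and tests were chosen with earlier results of these data known. Named were the 10 members, C5ar1, other superfamily genes with a mean TPM of at least 10 or past the unadjusted threshold, and from each pathway list the genes past that threshold, or otherwise up to 3 with the largest difference among those without overlap. The 3 closest profiles were named for Tnf, Tnfrsf11a and the 2 other members with the largest differences. Tnfsf11, Tnfrsf11b, Itgb3, Ctsk, Calcr, Dcstamp, Ocstamp, Oscar, Nfatc1, Mmp9, Sod2, Adam17, Atp6v0d2, Cd40lg, Tnfsf8, Fasl and Tnfsf14 were named outside this rule after values were seen. So were the genes listed by library order and the marker genes, and TATAAA was also chosen then. Alternatives were other pseudocounts (0.1 and 5), filters (none and a TPM of at least 5), quantile and median-of-ratios scaling, a replicate block, eBayes without trend and leaving out each library. The macrophage marker covariate was added after seeing the data.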

Additional observations from a re-analysis of the deposited data

How the results depend on the processing

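The 10 genes stayed at 0 calls at the adjusted threshold under every alternative run. Over all genes that count was 2 with eBayes without trend, 23 with the macrophage marker covariate and 0 to 356 when each library was left out, the 356 without C5aR-/- TAM 1. Unadjusted calls were 314 higher and 419 lower, against 144 and 185 with a pseudocount of 5, 201 and 274 with a TPM of at least 5, and 244 to 619 and 323 to 647 when each library was left out. Among the 10 genes, 1 was called, against 0 with a pseudocount of 5 or a TPM of at least 5 (where Tnfrsf11a was not tested) and 0 to 1 when each library was left out (0 without WT TAM 3). The single call was Tnf instead of Tnfrsf11a without C5aR-/- TAM 1 and with the covariate. Genes without overlap numbered 1306 higher and 1845 lower, against 1570 to 2765 and 2075 to 3444 with 1 library left out, where fewer values must separate. Among the 10 genes this count was 2, against 1 under quantile normalization and median-of-ratios scaling and 2 to 4 with 1 library left out. Signs reversed for Tnfsf9 (-0.22 with the covariate, -0.74 to 0.92 with 1 library left out), Tnfsf13b (0.046 with quantile normalization, 0.024 with the covariate, -0.32 to 0.27 with 1 library left out) and Tnfrsf9 (0.0039 with a pseudocount of 5, 0.088 with quantile normalization, 0.15 with the covariate, -0.42 to 0.41 with 1 library left out). The Tnfsf9 to Tnfrsf9 ratio ranged from -0.75 to 1.13, below 0 without WT TAM 3 (-0.75) or C5aR-/- TAM 1 (-0.53). The cause was not tested. In their deviations from the group means, same-numbered libraries correlated at 0.19, -0.01 and 0.27, and differently numbered ones at -0.23 to 0.09. These values do not settle whether the numbers pair the libraries, and the labels do not say. With the replicate block, 344 genes were higher and 467 lower at the unadjusted threshold, and Tnfrsf11a was still the 1 call among the 10 genes (adjusted p = 0.179 from limma). TPM keeps no depth, so values such as those of Tnfrsf9 and Tnfsf13b carry a counting error of unknown size.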
